A study of Mus musculus with 10 samples.

Results

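Ccl5 and Tslp encode 2 secreted signals that B16-F1 mouse melanoma cells were found to transcribe at low levels, and whose levels lay in opposite directions between cells that lack the forkhead transcription factor FOXC2 and cells that have it. They were selected by gene name, as 2 of the 10735 genes of the deposited table, after their difference between the groups was known, so their own values are described here and not tested. The samples were 5 libraries of B16-F1ΔFOXC2 cells, labelled delta FOXC2 in genotype, and 5 libraries of WT B16-F1 cells. Both are cultures of the same melanoma line of C57Bl/6 background, lysed after 24 h in RPMI-1640 with 10% FBS at about 90% confluence and passages 5 to 10. The labels do not say how FOXC2 was removed or how many clones the ΔFOXC2 cells came from, so any other difference between the cell lines is part of each comparison. Values are FPKM, fragments scaled by transcript length and by the mapped fragments of the library, and differences are ΔFOXC2 minus wild type, although the design text took the ΔFOXC2 cells as its baseline.

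CCL5, also called RANTES, is a CC chemokine: it is secreted, binds to glycosaminoglycans on cell surfaces, and draws T cells, monocytes and eosinophils through CC chemokine receptors. Its gene is switched on by RNA and DNA sensors that act through interferon regulatory factors and NF-kB. TSLP, thymic stromal lymphopoietin, is a cytokine of the interleukin-7 type that epithelial and stromal cells release, and it acts on dendritic cells and other leukocytes through a receptor made of CRLF2 and the interleukin-7 receptor alpha chain, which signals through JAK kinases and STAT5. NF-kB and AP-1 factors are known to induce Tslp, as does calcium entry through ORAI1 and NFAT, while retinoid X receptors hold it down in mouse skin. RNA was measured, and secreted protein was not.

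The libraries were alike in scale, with FPKM sums of 240441 to 251273 and a median gene of 7.84 to 8.14 FPKM. Melanocyte genes marked both groups as labelled: all 7 of the fixed markers were measured, and their summed level was 3821 to 4215 FPKM in ΔFOXC2 libraries and 3183 to 3651 FPKM in wild-type libraries. Of those 7, only the pigment enzyme gene Tyr was called, at 83.2 ± 8.37 FPKM in ΔFOXC2 cells and 50.9 ± 7.55 FPKM in the wild type (SD, n = 5 each; log2 0.71, limma adjusted p = 0.000155). The most abundant markers were Tyrp1, at 1050 ± 73.0 and 881 ± 85.9 FPKM (limma adjusted p = 0.0109), and Mlana, at 928 ± 46.3 and 825 ± 46.1 FPKM (limma adjusted p = 0.01055), in ΔFOXC2 and wild-type cells in that order, both under 1.5-fold. At any fold, all 7 markers were higher in ΔFOXC2 cells at a limma adjusted p of at most 0.05. A gene is named as called below where limma gave it an adjusted p (Benjamini-Hochberg) no higher than 0.05 and its groups differed by 1.5-fold or more. The table holds no gene with a mean below 0.5 FPKM in both groups. A gene below that level in one group is thus in it only through the other, which fixes the direction of its difference but not the size. Tslp, at under 0.5 FPKM in ΔFOXC2 cells, is such a gene and Ccl5 is not. The rule for calls named 8.62% of the 10570 genes tested, 4.97% higher and 3.65% lower in ΔFOXC2 cells. Of the 525 higher genes 57 were below 0.5 FPKM in the wild type, and of the 386 lower genes 75 were below it in ΔFOXC2 cells.

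Ccl5 (ENSMUSG00000035042.2) lies on chromosome 11 of GRCm38, from 83525778 to 83530518 on the minus strand. In the GENCODE M21 annotation its coding transcript has 3 exons and 532 bases, and a second transcript of 668 bases retains an intron. Tslp (ENSMUSG00000024379.3) lies on chromosome 18, from 32815383 to 32819799 on the plus strand, with a coding transcript of 5 exons and 1126 bases and a retained-intron transcript of 1134 bases. The table gives 1 value per gene, and how transcripts were combined is not given in the sources used here.

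The 5 ΔFOXC2 libraries had 3.48, 3.01, 1.79, 1.99 and 2.34 FPKM of Ccl5 in replicates 1 to 5. The 5 wild-type libraries had 1.32, 0.384, 0.790, 1.01 and 1.22 FPKM. Every ΔFOXC2 library was above every wild-type library, with 0.466 FPKM between the lowest ΔFOXC2 value, in replicate 3, and the highest wild-type value, in replicate 1. Wild-type replicate 2 was the lowest of the 10 libraries. The mean level of Ccl5 was 2.52 ± 0.706 FPKM in ΔFOXC2 cells and 0.945 ± 0.374 FPKM in the wild type (SD, n = 5 each), a ratio of 2.67. On the log2(FPKM + 0.1) scale, which understates the change of low genes, the difference was 1.38. It was 1.13 without wild-type replicate 2 and 0.86 with a pseudocount of 1 in place of 0.1.

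Tslp showed the opposite arrangement. The ΔFOXC2 libraries had 0.406, 0.260, 0.421, 0.160 and 0.505 FPKM in replicates 1 to 5. The wild-type libraries had 1.57, 0.669, 1.85, 1.02 and 0.671 FPKM. All 5 ΔFOXC2 values were below all 5 wild-type values, but the space between the highest ΔFOXC2 library, replicate 5, and the lowest wild-type library, replicate 2, was 0.164 FPKM. Wild-type replicates 1 and 3 were higher than the other wild-type libraries. The mean level was 0.350 ± 0.138 FPKM in ΔFOXC2 cells and 1.16 ± 0.537 FPKM in the wild type (SD, n = 5 each), 3.30-fold lower in ΔFOXC2 cells. On the log2(FPKM + 0.1) scale Tslp differed by -1.44. That size depends on the pseudocount, since adding 1 gave -0.65 and adding 0.01 gave -1.67.

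**Figure D1:**
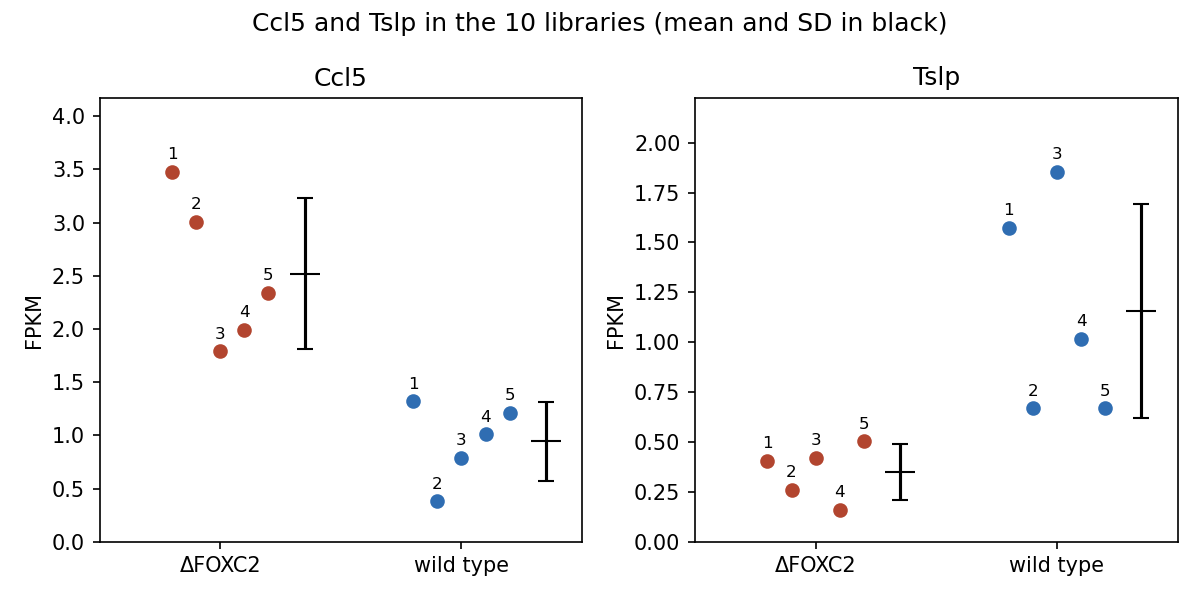
FPKM of Ccl5 (left panel) and Tslp (right panel) in each library, ΔFOXC2 in red and wild type in blue, with the replicate number above each point and the mean and SD (n = 5) in black. For Ccl5 the ΔFOXC2 libraries sit between 1.79 and 3.48 FPKM, above all wild-type libraries, and for Tslp they sit between 0.160 and 0.505 FPKM, below all of them.

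Groups that do not overlap were common in these data: 30.0% of the tested genes showed no overlap between the 5 ΔFOXC2 and the 5 wild-type libraries. Both genes were chosen on this contrast, so nothing is read from their lack of overlap. By size of the log2 difference, Ccl5 ranked 89th among the 10570 genes in the direction of ΔFOXC2 and Tslp 90th in the direction of the wild type.

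Both genes varied more between replicates than most genes. The SD within groups on the log2 scale was 0.52 for Ccl5 and 0.56 for Tslp, against a median of 0.12 over all tested genes. Low genes vary more in general, and among the 2372 tested genes with a mean of 0.5 to 3 FPKM the median SD was 0.20. Of those genes, 92.9% had a smaller SD than Ccl5 and 93.9% a smaller SD than Tslp. The coefficient of variation of Ccl5 was 28.0% in ΔFOXC2 cells and 39.6% in the wild type, and that of Tslp 39.4% and 46.4%. Read counts were not used here, so the counting error behind these values is unknown.

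FPKM is scaled by transcript length, but how transcripts were combined is not given, so the levels of the 2 genes can be set side by side only roughly. In ΔFOXC2 cells, the mean level of Ccl5 exceeded that of 19.9% of the genes in the table and the mean level of Tslp that of 1.11%. In the wild type, the shares were 6.68% for Ccl5 and 8.82% for Tslp. Genes under 0.5 FPKM in both groups are not among those compared, so these shares are not shares of all mouse genes, and a mean under that level is near the bottom by construction. The ratio of Ccl5 to Tslp FPKM was 8.55, 11.6, 4.25, 12.4 and 4.63 in ΔFOXC2 replicates 1 to 5, and 0.842, 0.574, 0.426, 0.994 and 1.81 in wild-type replicates 1 to 5. Ccl5 thus had the higher FPKM in every ΔFOXC2 library. In the wild type Tslp had the higher FPKM in replicates 1, 2 and 3, the 2 were nearly level in replicate 4, and Ccl5 was higher in replicate 5. Both genes were chosen with their opposite differences known, so the shift of the ratio between the groups followed from that choice.

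Other secreted signals were measured mainly to see whether the neighbouring families moved with Ccl5 or Tslp. Of 20 other CC chemokines on the list, 2 were tested and 0 were called by limma (1 at an unadjusted p of at most 0.05). Ccl25, a thymus and gut chemokine, had 1.58 ± 0.108 FPKM in ΔFOXC2 cells and 1.96 ± 0.151 FPKM in the wild type (SD, n = 5 each; log2 -0.29, limma adjusted p = 0.0141), under 1.5-fold. Ccl27a, a skin chemokine, had 0.764 ± 0.157 and 0.693 ± 0.250 FPKM in ΔFOXC2 and wild-type cells (log2 0.16, limma adjusted p = 0.588). Of 17 other chemokines, 2 were tested and 0 called by limma, with 0 at an unadjusted p of at most 0.05. One was Cxcl10, which like Ccl5 is a known target of interferon regulatory factors and NF-kB. It had 5.75, 5.62, 8.68, 4.87 and 5.74 FPKM in ΔFOXC2 replicates 1 to 5 and 6.34, 5.68, 6.14, 4.76 and 3.48 FPKM in wild-type replicates 1 to 5. The groups overlapped (log2 0.21, limma adjusted p = 0.368), and its difference from that of Ccl5 was not tested. Cx3cl1, a membrane-bound chemokine, had 0.655 ± 0.140 and 0.536 ± 0.112 FPKM (log2 0.25, limma adjusted p = 0.288).

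The list that holds Tslp has 32 other cytokines of several haematopoietic types. Of these 1 was tested, and it was not called by limma (0 at an unadjusted p of at most 0.05). With 1 gene tested, nothing is read about the family of TSLP. The tested gene was the macrophage growth factor Csf1, with 1.79 ± 0.511 FPKM in ΔFOXC2 cells and 1.90 ± 0.633 FPKM in the wild type (log2 -0.07, limma adjusted p = 0.827). Of 32 further cytokines and alarmins, 10 were tested, 1 was higher, 1 lower and 8 were not called (20% called, against 8.62% of all genes). The median log2 difference was -0.02, against -0.01 over all tested genes. The member that rose was Tgfb1, a suppressor of T-cell responses, with 4.83 ± 0.224 FPKM in ΔFOXC2 cells and 1.80 ± 0.123 FPKM in the wild type (log2 1.38, limma adjusted p = 6.094e-08). Its relative Tgfb2 fell, with 3.08 ± 0.619 and 6.47 ± 0.307 FPKM in ΔFOXC2 and wild-type cells (log2 -1.07, limma adjusted p = 2.639e-05). Tnfsf12, a ligand of the tumour necrosis factor family, had 2.55 ± 0.723 and 1.85 ± 0.372 FPKM (log2 0.41, limma adjusted p = 0.120), and its groups overlapped. The most abundant member was Mif, a macrophage inhibitory factor, at 439 ± 20.2 and 434 ± 28.5 FPKM (log2 0.02, limma adjusted p = 0.776).

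Ccr1, Ccr3 and Il7r were not analysed here. Crlf2, the chain that binds TSLP, was measured at 1.29 ± 0.498 FPKM in ΔFOXC2 cells and 1.06 ± 0.120 FPKM in the wild type (SD, n = 5 each; log2 0.18, limma adjusted p = 0.564). Its ΔFOXC2 libraries spread from 0.734 to 1.83 FPKM, and the groups overlapped. Among the 12 fixed receptors and surface molecules that bind CCL5, 5 were tested, 2 were higher and 3 were not called (40% called, against 8.62% of all genes). All 5 log2 differences were above 0, with a median of 0.32. The 2 that rose were syndecans, heparan sulfate proteoglycans of the cell surface. Sdc3 had 11.8 ± 2.32 and 6.25 ± 0.331 FPKM (log2 0.89, limma adjusted p = 0.000101), and Sdc4 had 33.7 ± 2.09 and 22.2 ± 1.60 FPKM (log2 0.60, limma adjusted p = 1.209e-05), in ΔFOXC2 and wild-type cells in that order. Sdc4 dropped under 1.5-fold without ΔFOXC2 replicate 1 (log2 0.58) or wild-type replicate 4 (log2 0.58) or 5 (log2 0.57).

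Of the 10 fixed genes of the TSLP receptor and its signalling, 7 were tested, Crlf2 among them. Of the 7, 1 was higher, 0 were lower and 6 were not called (14.3% called, against 8.62% of all genes). The median log2 difference was 0.01. Stat3, a transcription factor used by many cytokines, rose, with 7.71 ± 0.298 FPKM in ΔFOXC2 cells and 4.62 ± 0.187 FPKM in the wild type (log2 0.73, limma adjusted p = 8.562e-07). The kinases Jak1 (17.6 ± 0.314 and 17.5 ± 0.635 FPKM; log2 0.01, limma adjusted p = 0.890) and Jak2 (9.66 ± 0.584 and 10.2 ± 0.677 FPKM; log2 -0.07, limma adjusted p = 0.349) lay within the spread between libraries. Socs3, a feedback inhibitor of cytokine receptors, had 1.91 ± 0.119 and 2.68 ± 0.490 FPKM (log2 -0.45, limma adjusted p = 0.00715), under 1.5-fold.

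The machinery that induces Ccl5 was measured more completely, with 24 of 27 fixed genes tested. Of these, 4 were higher, 0 were lower and 20 were not called (16.7% called, against 8.62% of all genes). The median log2 difference was 0.06. The 4 higher genes included the RNA sensor RIG-I (Ddx58) and Irf9 and Stat2, which carry the type I interferon signal to the nucleus. Ddx58 had 6.92 ± 0.828 FPKM in ΔFOXC2 cells and 1.83 ± 0.423 FPKM in the wild type (log2 1.88, limma adjusted p = 2.337e-06). Irf9 had 5.98 ± 0.618 and 2.19 ± 0.265 FPKM in the same order (log2 1.41, limma adjusted p = 7.764e-07), and Stat2 2.41 ± 0.343 and 1.45 ± 0.121 FPKM (log2 0.69, limma adjusted p = 0.000297). With a pseudocount of 1, Stat2 was at 0.47 and no longer called. Irf7, an interferon regulatory factor, fell below the filter, is in the table only through its ΔFOXC2 level, and was not tested. Its ΔFOXC2 libraries had 1.09, 1.14, 0.637, 0.514 and 0.707 FPKM, all above the wild-type libraries at 0.171, 0.0398, 0.0952, 0.174 and 0.275 FPKM. The sensor Ifih1, the adaptors Mavs and Tmem173, the kinase Tbk1 and the factor Irf3 were among those not called, and Mavs was lower in ΔFOXC2 cells at under 1.5-fold (8.43 ± 0.653 and 10.2 ± 0.216 FPKM; log2 -0.28, limma adjusted p = 0.00180).

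Interferon target genes were mostly higher in ΔFOXC2 cells, as was already known from these data when Ccl5 was chosen, and they are given here for the place of Ccl5 among them. Of 24 tested, 19 rose (4 of them under 0.5 FPKM in the wild type, Xaf1 included), 0 fell and 5 were not called. That is 79.2% called, against 8.62% of all genes, and the median log2 difference was 1.12. Ccl5, at 1.38, had a smaller difference than 11 of the 24 targets and a larger one than 13. The 4 targets under 0.5 FPKM in the wild type are all among the 11, and their direction was fixed by entry. The place of Ccl5 is thus a description only. The largest differences among the targets were those of Xaf1, an apoptosis factor, with 2.83 ± 0.750 FPKM in ΔFOXC2 cells and 0.361 ± 0.110 FPKM in the wild type (log2 2.65, limma adjusted p = 3.891e-06), and Isg15, a ubiquitin-like protein, with 11.8 ± 2.05 and 2.03 ± 0.415 FPKM (log2 2.49, limma adjusted p = 2.747e-07). Gbp2, an interferon-induced GTPase, had 10.1 ± 1.86 and 4.89 ± 0.579 FPKM (log2 1.02, limma adjusted p = 8.137e-05). Ifit2, an RNA-binding antiviral protein, went the other way at under 1.5-fold, with 21.5 ± 1.50 and 28.8 ± 1.55 FPKM (log2 -0.42, limma adjusted p = 0.000111). The SD within groups of the 24 targets was 0.07 to 0.39 on the log2 scale, below the 0.52 of Ccl5.

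By library, the mean log2(FPKM + 0.1) of the 24 interferon targets was 2.41, 2.48, 2.02, 2.24 and 2.35 in ΔFOXC2 replicates 1 to 5. It was 1.09, 1.11, 1.04, 1.17 and 1.19 in wild-type replicates 1 to 5. Within the ΔFOXC2 group, replicates 1 and 2 were the highest and replicate 3 the lowest for both Ccl5 and the targets. In the wild type the targets differed little between libraries and were not lowest in replicate 2, where Ccl5 was lowest.

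**Figure D2:**
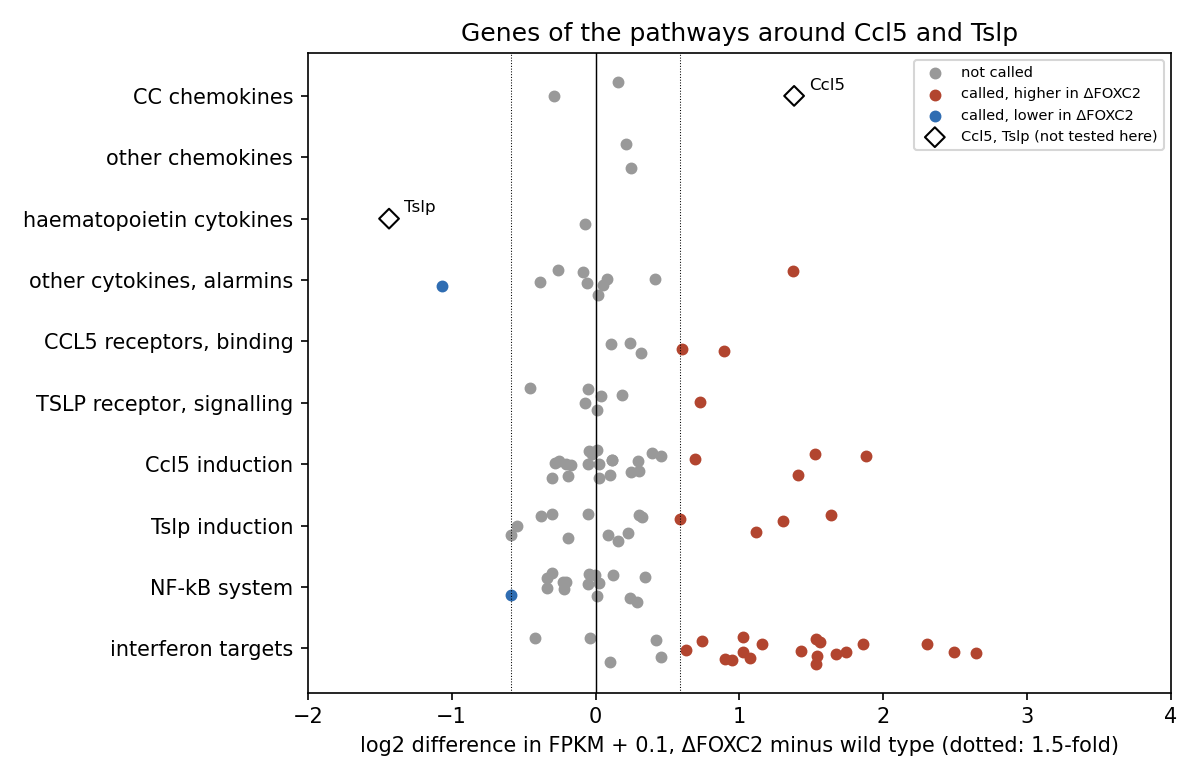
Log2 difference in FPKM + 0.1 (ΔFOXC2 minus wild type) of each tested gene, by gene list, with called genes in red (higher in ΔFOXC2) or blue (lower), genes not called in grey, and Ccl5 and Tslp as open diamonds. The dotted lines mark 1.5-fold. Interferon targets lie mostly to the right. The few other tested genes of the chemokine lists, and the 1 other tested gene of the haematopoietin list (Csf1), lie within 1.5-fold of 0.

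Among known regulators of Tslp, 15 of 24 fixed genes were tested, 4 were higher, 0 were lower and 11 were not called (26.7% called, against 8.62% of all genes). The median log2 difference was 0.16. The 4 that rose were NFAT and AP-1 factors, and 1 of them, Nfatc1, is in the table only through its ΔFOXC2 level. Nfatc1 had 1.30 ± 0.138 FPKM in ΔFOXC2 cells and 0.357 ± 0.103 FPKM in the wild type (log2 1.64, limma adjusted p = 1.041e-05), and Nfatc2 had 13.0 ± 0.890 and 5.93 ± 0.509 FPKM (log2 1.11, limma adjusted p = 3.587e-07). Another member of that family, Nfatc3, was lower in ΔFOXC2 cells and just under the fold threshold, with 7.23 ± 0.416 and 10.9 ± 0.694 FPKM (log2 -0.58, limma adjusted p = 1.516e-05). Leaving out ΔFOXC2 replicate 3 (log2 -0.62), ΔFOXC2 replicate 5 (log2 -0.59) or wild-type replicate 1 (log2 -0.63) brought it past 1.5-fold.

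Fos had 2.85, 2.81, 2.20, 4.93 and 2.89 FPKM in ΔFOXC2 replicates 1 to 5 and 1.14, 0.872, 1.34, 1.11 and 1.46 FPKM in wild-type replicates 1 to 5 (log2 1.30, limma adjusted p = 0.000290). ΔFOXC2 replicate 4, the highest for Fos, was the lowest for Tslp. Replicate 5, the next highest ΔFOXC2 library for Fos, was the highest of that group for Tslp, and a relation between the 2 genes was not tested. Fosl2 had 1.30 ± 0.115 and 0.841 ± 0.153 FPKM (log2 0.59, limma adjusted p = 0.00340). This call was lost when ΔFOXC2 replicate 1, 4 or 5 or wild-type replicate 2 or 4 was left out (log2 0.50 to 0.57) and with a pseudocount of 1 (log2 0.32). The retinoid X receptor Rxrb was not called, at 5.55 ± 0.478 and 8.15 ± 0.590 FPKM (log2 -0.55, limma adjusted p = 9.177e-05), and passed 1.5-fold without ΔFOXC2 replicate 2 (log2 -0.60). Osmr, the receptor for oncostatin M, was below the filter, is likewise in the table only through its ΔFOXC2 level, and was not tested, with 0.501 ± 0.0695 FPKM in ΔFOXC2 cells and 0.0465 ± 0.0203 FPKM in the wild type (SD, n = 5 each).

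NF-kB is known to act on both genes, and the RNA of its genes showed small differences. Its activity was not measured. Of 16 tested genes of 22 fixed, 1 was lower, 0 were higher and 15 were not called (6.25% called, against 8.62% of all genes). The median log2 difference was -0.05. At any fold, 7 were lower and 1 higher at a limma adjusted p of at most 0.05. The inhibitor gene Nfkbia fell, with 5.35 ± 0.565 FPKM in ΔFOXC2 cells and 8.11 ± 0.994 FPKM in the wild type (log2 -0.59, limma adjusted p = 0.000567). That call did not hold when ΔFOXC2 replicate 4 or 5 or wild-type replicate 1, 2 or 3 was left out (log2 -0.57 to -0.54) or with a pseudocount of 1 (log2 -0.52). The 2 members with the highest mean over all 10 libraries were Nfkbib, another inhibitor (30.4 ± 3.81 and 35.1 ± 0.559 FPKM; log2 -0.22, limma adjusted p = 0.0344), and the subunit gene Rela (23.4 ± 1.40 and 27.3 ± 0.875 FPKM; log2 -0.22, limma adjusted p = 0.00259). Nfkb1, the gene of the p50 subunit, had 4.53 ± 0.354 and 5.73 ± 0.322 FPKM (log2 -0.34, limma adjusted p = 0.00194). Tnip1, an inhibitor of NF-kB signalling, was higher in ΔFOXC2 cells, with 27.5 ± 1.02 and 21.7 ± 1.11 FPKM (log2 0.34, limma adjusted p = 9.96e-05). These 4 genes were under 1.5-fold.

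Over the distinct genes of these 10 lists, 105 were tested, 31 were higher, 2 lower and 72 not called. The share called was 31.4%, against 8.62% of all genes, and the interferon targets hold 19 of the 31. Because the lists were chosen with earlier results of these data known, nothing is read from this excess.

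T cells and macrophages are textbook sources of Ccl5, and epithelial cells and fibroblasts of Tslp, so markers of these cells were looked up. Of 8 macrophage markers 2 had values, and both rose: Lyz2, a lysozyme, with 2.33 ± 0.667 FPKM in ΔFOXC2 cells and 0.386 ± 0.172 FPKM in the wild type (log2 2.36, limma adjusted p = 6.498e-05), and Cd68, a lysosomal glycoprotein, with 1.45 ± 0.268 and 0.721 ± 0.216 FPKM (log2 0.94, limma adjusted p = 0.00344). Lyz2 is in the table only through its ΔFOXC2 level, so its direction was fixed by entry. With a pseudocount of 1, Cd68 was at 0.51 and no longer called. Their summed level was 2.53 to 4.59 FPKM in ΔFOXC2 libraries and 0.757 to 1.40 FPKM in wild-type libraries. Lyz2 was the larger part of it in the ΔFOXC2 libraries, so nothing is read from the direction of the sum. Within the ΔFOXC2 group the sum was lowest in replicate 3, as Ccl5 and the interferon targets were. The defining leukocyte markers Ptprc, Csf1r and Adgre1 were not analysed here, and the same holds for all 14 T-cell and natural killer markers, all 8 epithelial and all 6 endothelial markers. They were looked up and have no value in a table that starts at a group mean of 0.5 FPKM, so nothing is said of their level. Of 7 fibroblast markers, Col1a2 had 0.715 ± 0.151 and 0.856 ± 0.0355 FPKM (log2 -0.25, limma adjusted p = 0.153). The part of such cells in the levels of Ccl5 or Tslp was not tested, and in bulk RNA a change in the number of expressing cells and a change in RNA per cell cannot be told apart.

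To see whether the chromosome region around each gene was shifted, the tested genes within 1000 kb of either end were compared. Around Ccl5, 17 of 42 annotated protein-coding genes were tested, with a median log2 difference of -0.11, of which 6 were above 0 and 11 below. The nearest tested genes were Taf15, an RNA-binding protein whose start lies 57.4 kb away (74.1 ± 4.93 FPKM in ΔFOXC2 cells and 97.6 ± 15.2 FPKM in the wild type; log2 -0.39, limma adjusted p = 0.00649), and Heatr6 on the other side (5.54 ± 0.340 and 5.98 ± 0.262 FPKM; log2 -0.11, limma adjusted p = 0.142). Neither was called. The neighbour that rose was Slfn9, of the Schlafen family, a group that includes interferon-induced genes, with 29.0 ± 4.30 and 18.4 ± 3.59 FPKM (log2 0.66, limma adjusted p = 0.00185). The groups of Slfn9 overlapped, with wild-type replicate 2 at 24.36 FPKM and ΔFOXC2 replicate 1 at 24.03 FPKM. Its copies in the cluster are similar in sequence, so its value is uncertain, and its fold was 0.58 on the log2 scale, under the threshold, without ΔFOXC2 replicate 5.

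Around Tslp, 12 of 18 annotated protein-coding genes were tested, with a median log2 difference of -0.11. Wdr36, of ribosome synthesis, starts 21.8 kb from Tslp and had 24.9 ± 0.732 FPKM in ΔFOXC2 cells and 26.4 ± 0.856 FPKM in the wild type (log2 -0.08, limma adjusted p = 0.0909). On the other side the nearest tested gene was Gypc, a red cell glycophorin, which starts 255 kb from Tslp. It fell, with 1.09, 0.840, 1.10, 0.878 and 1.13 FPKM in ΔFOXC2 replicates 1 to 5 and 5.04, 4.51, 4.29, 4.62 and 4.30 FPKM in wild-type replicates 1 to 5 (log2 -2.08, limma adjusted p = 4.694e-08). The groups were far apart. Relative to the group mean, the spread within each was small next to that of Tslp. In FPKM the ΔFOXC2 SD was nearly the same, 0.137 for Gypc and 0.138 for Tslp. Epb41l4a, a cytoskeletal linker, rose, with 10.0 ± 1.10 and 6.11 ± 1.14 FPKM (log2 0.72, limma adjusted p = 0.000597). Of the 29 neighbours tested in both regions, 2 were higher and 1 was lower. The share called was 5.88% around Ccl5 and 16.7% around Tslp, against 8.62% of all genes.

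**Figure D3:**
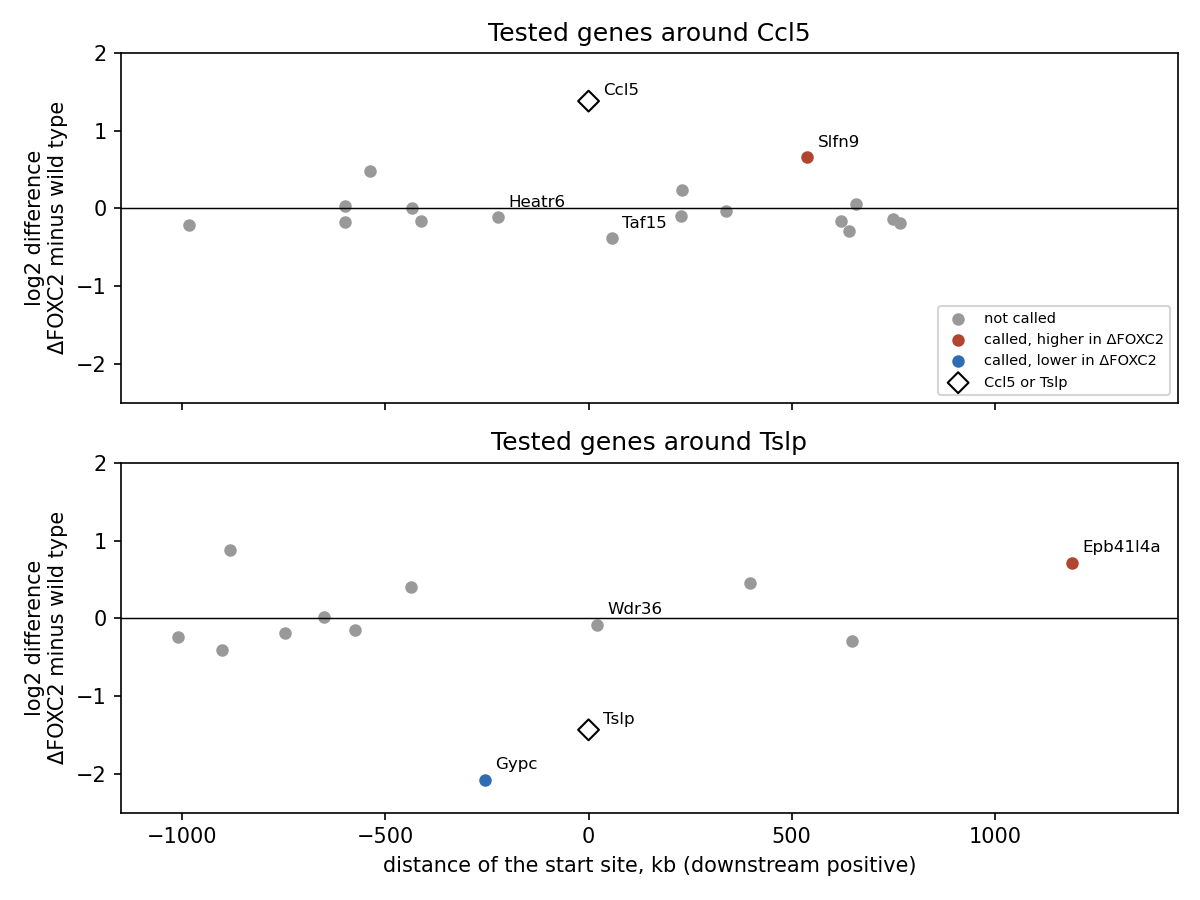
Log2 difference (ΔFOXC2 minus wild type) of tested genes around Ccl5 (upper panel) and Tslp (lower panel) against the distance of their start sites in kb, positive downstream of the gene, with called genes in red (higher) or blue (lower) and Ccl5 and Tslp as open diamonds. Taf15 lies at -0.39, Wdr36 at -0.08 and Gypc at -2.08.

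The genes whose pattern over the 10 libraries was most like that of each cytokine were found by the root mean square distance between log2(FPKM + 0.1) profiles centred on each gene's mean. This is a description, and since the contrast that chose Ccl5 and Tslp dominates the distance, the nearest genes also differ between the groups. For Ccl5 the nearest were Ogdhl, an oxoglutarate dehydrogenase relative, at a distance of 0.314, the histone gene Hist3h2a at 0.323, the adhesion molecule Icam2 at 0.331, the interferon-induced GTPase Gbp3 at 0.335 and the lysosomal protease Ctsh at 0.358. Ogdhl, Icam2 and Ctsh were under 0.5 FPKM in the wild type and are in the table only through their ΔFOXC2 level, so their direction was fixed by entry. The median distance of all tested genes from Ccl5 was 0.847, and that of Tslp from Ccl5 was 1.52. Like Ccl5, each of the 5 nearest genes had its lowest value of the 10 libraries in wild-type replicate 2. They were picked for closeness to Ccl5 over these same libraries, so nothing is read from that shared low value.

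For Tslp the nearest profiles were those of Trim47, a TRIM ubiquitin ligase, at 0.388, Acsbg1, an acyl-CoA synthetase, at 0.395, Tmem204, an endothelial junction protein, at 0.424, caveolin-1 (Cav1) at 0.425 and the WNT receptor Fzd9 at 0.426, with a median over all tested genes of 0.887. Trim47 had 0.270 ± 0.0956 FPKM in ΔFOXC2 cells and 1.01 ± 0.166 FPKM in the wild type, and Cav1 0.317 ± 0.105 and 0.961 ± 0.144 FPKM. Both were close to Tslp in mean level. Trim47, Acsbg1, Cav1 and Fzd9 were, like Tslp, under 0.5 FPKM in ΔFOXC2 cells and are in the table only through the wild type. Their direction was fixed by entry, so nothing is read from their likeness to Tslp in level or pattern.

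**Figure D4:**
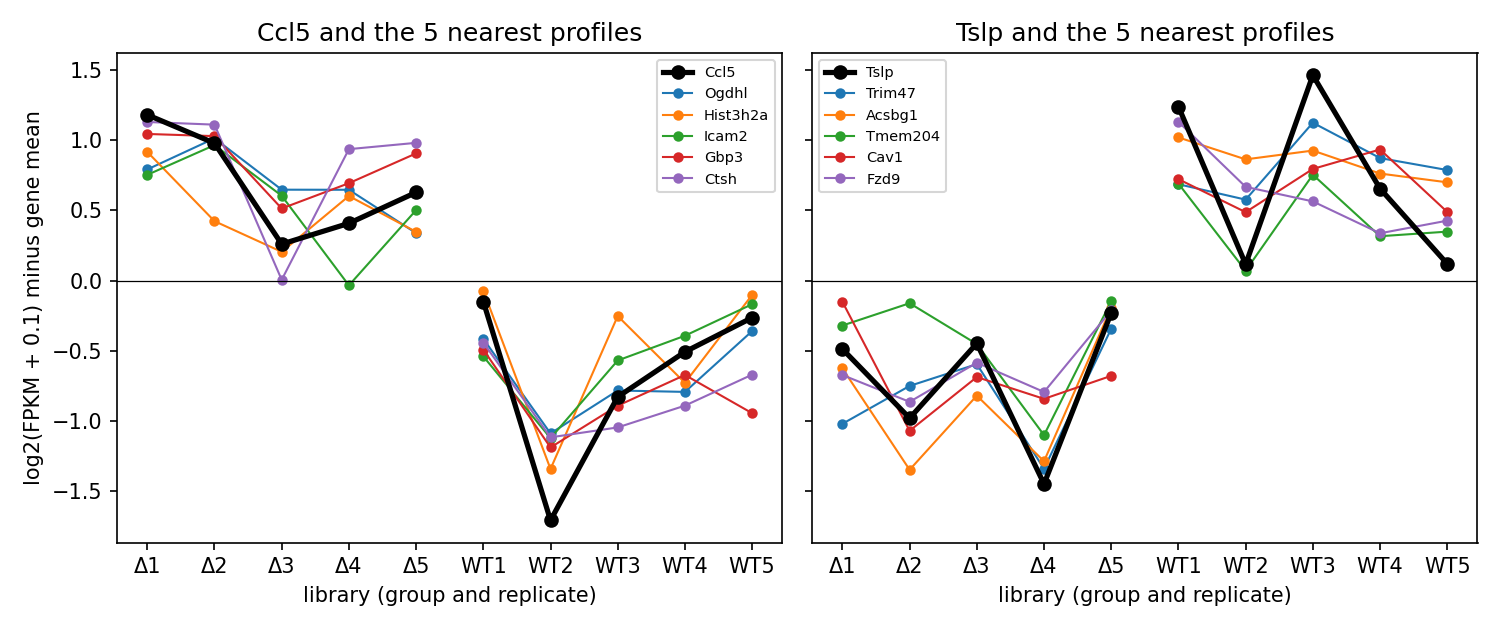
Log2(FPKM + 0.1) minus the gene's mean in each library, for Ccl5 (left panel, black) and Tslp (right panel, black) and the 5 genes nearest to each in colour, ΔFOXC2 libraries (Δ1 to Δ5) left of wild-type libraries (WT1 to WT5). Lines only join the points of a gene, since replicates have no order. The black lines swing more between replicates than most of the coloured ones, with Ccl5 lowest in WT2.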

How the data were processed

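RNA of 10 libraries was measured. The authors deposited 1 FPKM value per gene and library, for genes reaching a mean of 0.5 FPKM in at least 1 group as the values show, and FastQC, cutadapt, HISAT2, StringTie and GRCm38 are named in the submitters' processing notes. Read counts were not used here, so depth is unknown. Libraries were grouped by their labels. On log2(FPKM + 0.1), the 10570 of 10735 genes whose mean across libraries reached 0.5 FPKM were fitted with limma 3.58.1 in R 4.3.3, with a mean-variance trend, and p-values were adjusted over all 10570. The fit was tested on simulated data. Nothing states that replicates were separate cultures, so p-values measure the spread between these libraries, which may be technical. Ccl5, Tslp and the gene lists were chosen with earlier results of these data known. Named genes were chosen by a rule over the lists, neighbours and nearest profiles. Stat2, Irf9, Nfatc2, Fosl2, Nfatc3, Rxrb, Crlf2, Socs3, Nfkb1, Tnfsf12, Gbp2, Ifit2, Mif, Irf7, Osmr, Mavs and Tnip1 were added after their values were seen. Alternatives were other pseudocounts, filters, folds and scalings, no trend, each library left out, and a replicate block. Some genes of the lists are not reported here by name.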

Additional observations from a re-analysis of the deposited data

Results flagged for a closer look

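In 6 of the 120 groups of 5 libraries checked, 1 library stood apart from the other 4 by more than Dixon's critical value, and chance gives about 1 in 20. Neither Ccl5 nor Tslp was among them. Cxcl10 had 8.675 FPKM in ΔFOXC2 replicate 3, above the other ΔFOXC2 libraries. Ctsh had 0.6921 FPKM in the same library, below the others. Fos had 4.927 FPKM in ΔFOXC2 replicate 4, above the others. Nfatc3 had 9.688 FPKM in wild-type replicate 1, below the other wild-type libraries. Gbp2 had 5.895 FPKM in that library, above the others. Rxrb had 9.174 FPKM in wild-type replicate 5, above the others.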

How the results depend on the processing

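The 5 libraries per group and the low FPKM of Ccl5 and Tslp limit precision. Over all genes, 525 were higher and 386 lower in ΔFOXC2 cells. With a pseudocount of 1 these were 338 and 230, 1 listed gene was lower, and the log2 differences were 0.86 for Ccl5 and -0.65 for Tslp. With a 2-fold threshold they were 191 and 148, 1 listed gene was lower and 0 neighbours were higher by limma. With a pseudocount of 0.01, Ccl5 was at 1.48 and Tslp at -1.67, and 3 listed genes were lower. Leaving out each library in turn gave 505 to 554 higher and 370 to 409 lower genes, 28 to 32 higher and 1 to 3 lower listed genes, 1 to 2 higher neighbours, and log2 differences of 1.13 to 1.52 for Ccl5 and -1.59 to -1.25 for Tslp. Of genes not called, 3 changed sign with the library left out: Jak1 ranged from -0.0059 to 0.022, Csf1 from -0.19 to 0.074 and Mif from -0.0056 to 0.058. Jak1 was below 0 without ΔFOXC2 replicate 2 (-0.0020) or wild-type replicate 1 or 5 (-0.0053), Csf1 above 0 without ΔFOXC2 replicate 4 (0.0065) or 5 (0.063) or wild-type replicate 1 or 3 (0.0073), and Mif below 0 without ΔFOXC2 replicate 3 or wild-type replicate 2 (-0.0030). The cause was not tested. Replicate numbers showed no clear pairing of the libraries: same-numbered deviations correlated at -0.121 to 0.137, and 3 of 5 correlated best with their own number. With the replicate as a block, 526 genes were higher and 390 lower, and Ccl5 and Tslp were at 1.38 and -1.44.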
